A study of Mus musculus with 6 samples.

Results

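The natriuretic peptides are hormones that the heart releases under load, and their genes, with a few others, are used as readouts of cardiac stress. The set described here was fixed by symbol and held 10 genes: the peptide genes Nppa, Nppb and Nppc, the receptor genes Npr1, Npr2 and Npr3, the convertase gene Corin, and the stress markers Ankrd1, Rcan1 and Gdf15. Of these, 9 were measured, by 13 probe sets, out of 18193 genes and 34945 probe sets with a single gene symbol on the array. Gdf15 was not analysed here. For each gene the brightest probe set, by its mean over all 6 arrays, was the main one.

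Hearts of mice without desmin, an intermediate filament protein that ties the contractile apparatus of heart muscle together, were compared in a pair of groups at 3 months of age. One group, TNFαDes-/-, also overexpressed TNF-α, an inflammatory cytokine, in the heart, on a mixed 129SV/C57 background, and was measured on 3 arrays. The other, Des-/-, was of the 129SV strain and was also measured on 3 arrays. Transgene and strain therefore cannot be told apart, and the sources used here do not name the promoter that drives the transgene. The labels speak of RNA pooled from 3 hearts of each genotype and the series design of 3 mice, so p-values below rest on differences among arrays that could be technical repeats. No hearts with normal desmin were included, so every value below is set against the desmin-null heart. In whole-heart RNA, fewer cells of a type and less RNA per cell cannot be told apart.

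Atrial natriuretic peptide (ANP, from Nppa) is stored mainly in atrial muscle and brain natriuretic peptide (BNP, from Nppb) is made in atria and ventricles; both are induced in stressed ventricles. Corin, a membrane protease of cardiomyocytes, cleaves pro-ANP. ANP and BNP act through Npr1, and C-type natriuretic peptide (CNP, from Nppc) through Npr2. Both receptors are guanylyl cyclases that make cyclic GMP, while Npr3 lacks the cyclase and clears the peptides. Ankrd1 encodes a titin-associated ankyrin repeat protein of cardiomyocytes, and Rcan1 an inhibitor of the phosphatase calcineurin that is itself induced by calcineurin and NFAT signalling.

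The arrays differed in technical measures along with the groups. The log2 difference between the 3' and 5' control probe sets of Gapdh was 0.28 to 0.34 on the TNFαDes-/- arrays, against -0.05 to 0.01 on the Des-/- arrays, and that of Actb 0.62 to 0.79, against 0.41 to 0.57. The 99th percentile of an array's log2 values lay at 12.26 to 12.31 on the TNFαDes-/- arrays, 12.27 on Des-/- replicate 1 and 11.69 to 11.75 on the other Des-/- arrays. Des-/- replicate 1 thus stood apart from its group and, by this measure, lay with the TNFαDes-/- arrays. Comparisons without it keep only the Des-/- arrays with the lower 99th percentiles. The part of these measures in the changes described below was not tested, and values after renormalizing the arrays, or without Des-/- replicate 1, are given with the genes that rest on them. The engineered genes did not check the labels. Tnf stood at 5.94 ± 0.19 in TNFαDes-/- and 5.87 ± 0.09 in Des-/- hearts (SD, n = 3; limma adjusted p = 0.746), and Des at 8.79 ± 0.08 and 8.40 ± 0.06 (adjusted p = 0.0219; 0.199 after quantile normalization), and the sources used here do not say whether either probe set lies within the transgene or the deleted part.

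Of the 9 measured genes, 4 rose in TNFαDes-/- hearts (Nppb, Ankrd1, Nppa and Rcan1), 0 fell and 5 did not pass the test (limma, Benjamini-Hochberg adjusted p under 0.05 over all 18193 genes). Over all genes, 15.2% passed as higher and 6.05% as lower. After quantile normalization of the arrays the same 4 genes rose and 1, Corin, fell, where 12.0% of all genes passed as higher and 10.4% as lower, so that 53.6% of all called genes were higher there and 71.5% as deposited. The same 4 genes had groups that did not overlap, with TNFαDes-/- above Des-/-, where 24.3% of all genes did. The reverse was seen in 13.7% of all genes. The median log2 change of the 9 genes was 0.03, against 0.04 over all genes.

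The stretches of 250 bases before the start sites of Nppb, Nppa and Ankrd1 are shown because these 3 genes had the largest changes on the deposited values and their promoters are classical targets of cardiac transcription factors. After quantile normalization Rcan1 (0.62) changed more than Nppa (0.43). Sequences are from RefSeq, build GRCm38.p6, written 5′ to 3′ on the gene's own strand, and entries were found for all 9 measured genes. Nppb lies at chr4:147985650-147985899 (plus strand), Nppa at chr4:148000472-148000721 (plus strand) and Ankrd1 at chr19:36119845-36120094 (minus strand). Capitals mark matches to the motifs searched.
Nppb: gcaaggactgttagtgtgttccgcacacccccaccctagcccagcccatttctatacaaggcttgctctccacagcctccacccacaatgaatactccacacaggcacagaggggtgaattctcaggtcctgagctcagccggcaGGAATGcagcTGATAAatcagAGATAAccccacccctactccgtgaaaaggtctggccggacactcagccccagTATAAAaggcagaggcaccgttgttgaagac
Nppa: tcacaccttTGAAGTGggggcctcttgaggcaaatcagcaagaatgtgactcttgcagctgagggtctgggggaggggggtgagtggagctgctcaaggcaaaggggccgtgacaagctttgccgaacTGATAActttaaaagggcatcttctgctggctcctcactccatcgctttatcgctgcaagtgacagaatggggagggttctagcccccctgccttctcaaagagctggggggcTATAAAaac
Ankrd1: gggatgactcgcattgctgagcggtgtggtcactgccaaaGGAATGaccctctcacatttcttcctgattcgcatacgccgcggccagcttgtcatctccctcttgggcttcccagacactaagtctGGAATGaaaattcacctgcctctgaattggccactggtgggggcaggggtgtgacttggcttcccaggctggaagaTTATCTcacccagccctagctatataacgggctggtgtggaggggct

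The motifs were the GATA motif (AGATAA or TGATAA, also with G as the last base), the M-CAT motif read by TEAD factors (GGAATG), the NKX2-5 motif (TNAAGTG), the AP-1 motif (TGANTCA), the TATA motif (TATAAA, on the gene's strand) and the CArG box of SRF (CCWWWWWWGG, with W for A or T). All but TATA were searched on both strands, and no 2 matches overlapped in the stretches shown. The Nppb stretch held a GATA match at bases 95 to 90 and another at 84 to 79 before the start, close to an M-CAT match at 105 to 100. The Nppa stretch held a GATA match at 122 to 117 and an NKX2-5 match at 241 to 235, and the Ankrd1 stretch M-CAT matches at 210 to 205 and 123 to 118 and a GATA match on the other strand at 47 to 42. Among the 10 start-site entries of the 9 genes, GATA matches were found in 3 genes and M-CAT matches in 2. The corresponding share of all 32851 promoter stretches was 26.5% for GATA and 12.6% for M-CAT. It was 10.1% for the NKX2-5 motif, 6.75% for AP-1, 7.59% for TATA and 1.47% for the CArG box, which had 0 matches in these genes. Only exact matches were searched, so sites that depart from a motif, such as a CArG-like site, would not be found.

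Nppb, the BNP gene, had the largest measured change among the members. Its single probe set (1450791_at) read 13.66, 13.72 and 13.67 on the 3 TNFαDes-/- arrays, against 11.79, 11.44 and 11.37 on the 3 Des-/- arrays (log2). Every TNFαDes-/- array stood far above every Des-/- array. Nppb was 4.43-fold higher in TNFαDes-/- hearts (log2 change 2.15 ± 0.13 SE, n = 3 per group, limma adjusted p = 2.57e-05). The change was 1.80 after quantile normalization and 1.74 after cyclic loess. On the deposited values it was 2.28 without Des-/- replicate 1, and 1.89 with Des-/- replicates 2 and 3 left out together. Ordered by brightness among 45037 probe sets, Nppb ranked between 59 and 67 on the TNFαDes-/- arrays and between 580 and 650 on the Des-/- arrays.

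Nppa, the ANP gene, was already among the brightest probe sets of the desmin-null heart. Its probe set (1456062_at) read 15.03, 15.04 and 15.01 on the TNFαDes-/- arrays, against 14.49, 13.89 and 13.92 on the Des-/- arrays. The groups did not overlap, and Des-/- replicate 1 was the highest of its group, as it was for Nppb and Ankrd1. Nppa was 1.90-fold higher in TNFαDes-/- hearts (0.93 ± 0.16 SE, adjusted p = 0.00473).

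Nppa was the brightest of the 45037 probe sets on each TNFαDes-/- array (rank 1) and ranked 12 to 18 on the Des-/- arrays. The TNFαDes-/- readings spanned 15.01 to 15.04 and were the maximum of their arrays, so a signal beyond the measurable range would not be seen. Quantile normalization gives all arrays the same maximum, so it set the 3 TNFαDes-/- readings of Nppa to 1 identical value (14.74). The change was then 0.43 (limma adjusted p = 0.00658, which holds no spread of Nppa among these 3 arrays). With an intensity trend in the variance it did not pass (adjusted p = 0.0607), nor with Des-/- replicates 2 and 3 left out together, at 0.54 (adjusted p = 0.0524).

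The readings of Nppb and Nppa were also set against each other within each array. The log2 difference Nppb minus Nppa was -1.35 ± 0.03 on the TNFαDes-/- arrays and -2.57 ± 0.13 on the Des-/- arrays (SD, n = 3), which differ by 1.22. All 3 TNFαDes-/- arrays lay above all 3 Des-/- arrays (exact permutation test, two-sided, p = 0.10, the smallest p that 3 against 3 arrays allow). Because Nppa was the maximum of each TNFαDes-/- array, a larger Nppa signal there would not be seen, so this difference does not show that Nppb changed more than Nppa.

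Nppa and Nppb are direct neighbours on chromosome 4, with 0 genes listed between them in RefSeq. Among the 3 measured genes on either side, Mfn2 (0.56 ± 0.16, adjusted p = 0.0382), a mitochondrial fusion gene, and Plod1 (0.41 ± 0.11, adjusted p = 0.0295), a collagen lysyl hydroxylase gene, rose as deposited. After quantile normalization neither passed (0.20 each, adjusted p = 0.123 and 0.182). 2510039O18Rik (0.03 ± 0.17), Clcn6 (0.08 ± 0.09), Agtrap (0.24 ± 0.12) and Draxin (0.04 ± 0.16) did not pass.

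Nppc, the CNP gene, gave low readings on all arrays. They were 4.30, 4.58 and 4.09 on the TNFαDes-/- arrays, against 4.21, 4.42 and 4.39 on the Des-/- arrays, and each lay below the median of its array (5.02 to 5.08). The groups overlapped, and with no detection calls in the table the gene is not shown to be above background. The change was -0.02 (95% interval -0.33 to 0.30, adjusted p = 0.944).

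**Figure D1:**
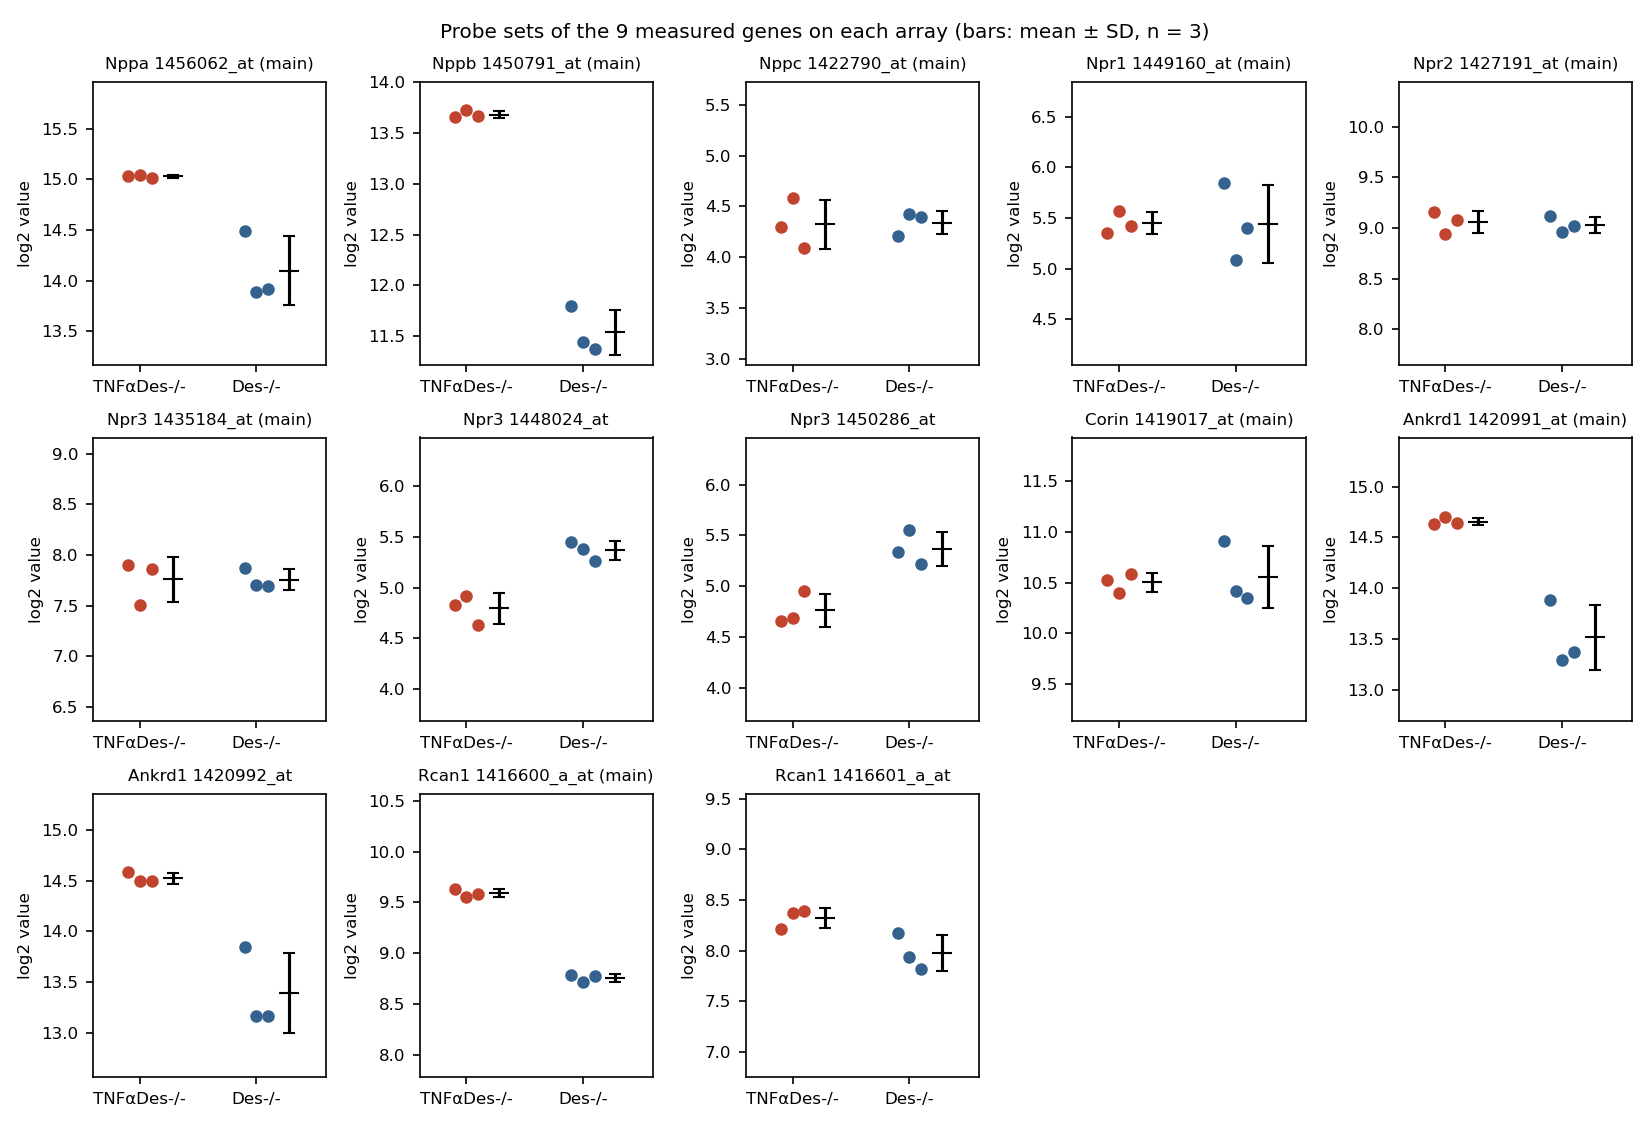
Log2 values of the 13 probe sets of the 9 measured genes on each array, TNFαDes-/- left (red) and Des-/- right (blue), with black bars for the mean ± SD (n = 3); each panel spans the same number of log2 units. Nppb, Nppa, both Ankrd1 probe sets and both Rcan1 probe sets have every TNFαDes-/- array above every Des-/- array, and 2 of the 3 Npr3 probe sets the reverse. Over all genes, on their brightest probe sets, the shares were 24.3% and 13.7%.

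Neither guanylyl cyclase receptor passed the test. Npr1, the receptor of ANP and BNP, read 5.36, 5.57 and 5.42 on the TNFαDes-/- arrays, against 5.84, 5.08 and 5.40 on the Des-/- arrays. The TNFαDes-/- arrays lay within the range of the Des-/- arrays. The change was 0.01 (95% interval -0.40 to 0.42, adjusted p = 0.977). Its probe set was little brighter than the array medians, and Des-/- replicate 2 (5.08) lay at its array's median, so changes of this gene are poorly measured.

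Npr2, the CNP receptor, was well measured and read 9.16, 8.94 and 9.08 on the TNFαDes-/- arrays, against 9.11, 8.96 and 9.02 on the Des-/- arrays. The groups overlapped throughout, with a change of 0.03 (95% interval -0.20 to 0.26, adjusted p = 0.882). The upper end of this interval lies below the deposited changes of Nppb, Ankrd1, Nppa and Rcan1. After quantile normalization the change was -0.18 and also did not pass (adjusted p = 0.215).

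The 3 probe sets of Npr3, the clearance receptor, disagreed. The brightest (1435184_at) read 7.91, 7.51 and 7.87 on the TNFαDes-/- arrays, against 7.87, 7.70 and 7.70 on the Des-/- arrays, and the groups overlapped. Its change was 0.00 (95% interval -0.29 to 0.30, adjusted p = 0.996). The other probe sets were dimmer and lower in TNFαDes-/- hearts, with groups that did not overlap, as in 13.7% of all genes on their brightest probe sets.

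The dimmer Npr3 probe set 1448024_at read 4.83, 4.92 and 4.63 on the TNFαDes-/- arrays, against 5.45, 5.38 and 5.27 on the Des-/- arrays. It fell by 0.57 on the log2 scale (SE 0.11, limma adjusted p = 0.0109 over all 34945 probe sets, of which 5.62% passed as lower). The dimmer probe set 1450286_at read 4.65, 4.69 and 4.95, against 5.33, 5.55 and 5.22, and fell by 0.61 (SE 0.13, adjusted p = 0.0144). On both, the TNFαDes-/- readings lay below and the Des-/- readings above the median of their arrays, so no fold is given. Both kept their calls after quantile normalization (-0.55 and -0.59, adjusted p = 0.00706 and 0.0138) and without Des-/- replicate 1 (-0.53 and -0.62). The mean of the 3 probe sets gave -0.39 (adjusted p = 0.0134 over genes), so the call for Npr3 depends on the probe set used.

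Corin, the pro-ANP convertase, read 10.53, 10.40 and 10.58 on the TNFαDes-/- arrays, against 10.91, 10.42 and 10.34 on the Des-/- arrays. Des-/- replicate 1 alone stood high, and the other readings overlapped. As deposited the change was -0.05 ± 0.15 SE and did not pass (adjusted p = 0.849). The call depended on how the arrays were scaled. It fell by 0.37 after quantile normalization (adjusted p = 0.0114, where 10.4% of all genes passed as lower) and by 0.36 after cyclic loess (adjusted p = 0.0137), while without Des-/- replicate 1 the deposited change was 0.12 (adjusted p = 0.380).

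**Figure D2:**
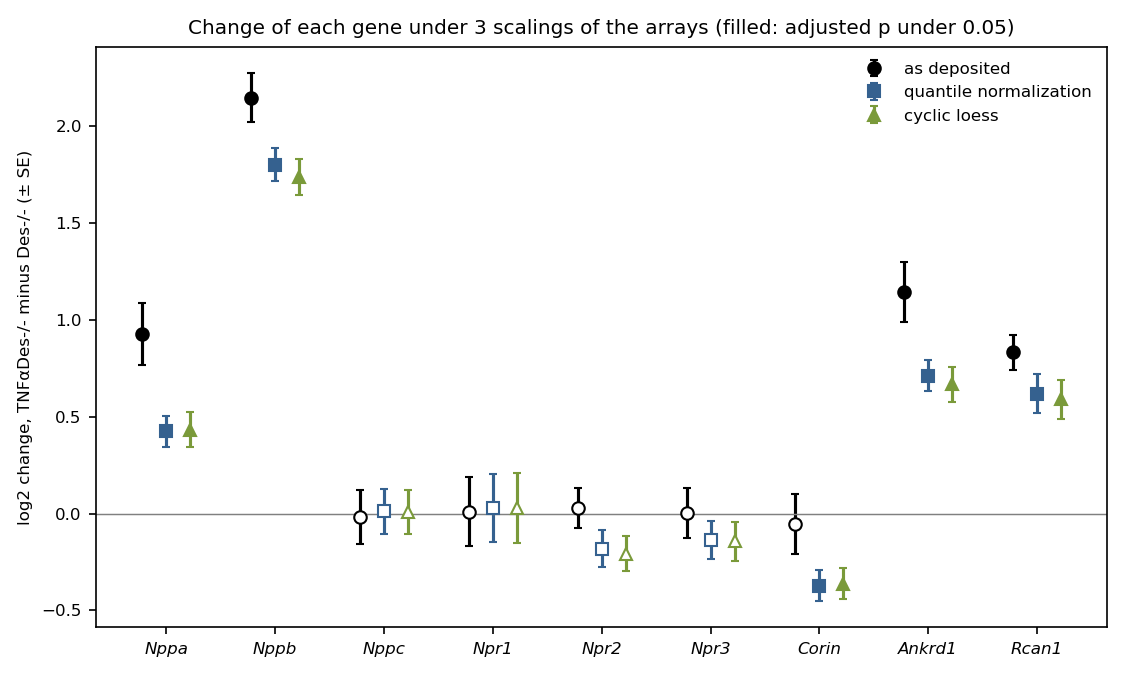
Log2 change of the main probe set of each gene, TNFαDes-/- minus Des-/-, with its SE (n = 3 per group), on the values as deposited (black circles), after quantile normalization (blue squares) and after cyclic loess (green triangles); filled symbols have an adjusted p under 0.05. Nppa, Nppb, Ankrd1 and Rcan1 are above 0 and filled under all 3 scalings, with Nppa at 0.93 as deposited and 0.43 under each of the others, and Corin is filled under both renormalizations but not as deposited. Under quantile normalization the TNFαDes-/- readings of Nppa are identical by construction.

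Both probe sets of Ankrd1, the titin-associated stress gene, were higher in TNFαDes-/- hearts. The brighter (1420991_at) read 14.63, 14.70 and 14.64 on the TNFαDes-/- arrays, against 13.88, 13.29 and 13.37 on the Des-/- arrays. The groups did not overlap, and Des-/- replicate 1 was nearest to the other group. It was 2.21-fold higher in TNFαDes-/- hearts (1.14 ± 0.15 SE, adjusted p = 0.00152). Its rank by brightness was 8 to 11 on the TNFαDes-/- arrays and 44 to 50 on the Des-/- arrays, so it too lay near the top of the scale.

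The other Ankrd1 probe set (1420992_at) gave 1.13 ± 0.18 SE (adjusted p = 0.00469 over all probe sets, of which 11.7% passed as higher). After quantile normalization the brighter probe set of Ankrd1 gave 0.71 (adjusted p = 0.000585). Its deposited change was 1.33 without Des-/- replicate 1, and 0.77 with Des-/- replicates 2 and 3 left out together.

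Rcan1, the calcineurin inhibitor, was also higher in TNFαDes-/- hearts. Its brighter probe set (1416600_a_at) read 9.64, 9.55 and 9.58 on the TNFαDes-/- arrays, against 8.78, 8.71 and 8.78 on the Des-/- arrays. Des-/- replicate 1 did not stand apart here. Rcan1 was 1.78-fold higher in TNFαDes-/- hearts (0.83 ± 0.09 SE, adjusted p = 0.000572), and 0.62 on the log2 scale after quantile normalization (adjusted p = 0.00351). With Des-/- replicates 2 and 3 left out together its deposited change was 0.81.

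The other Rcan1 probe set (1416601_a_at) moved less. It read 8.21, 8.37 and 8.40 on the TNFαDes-/- arrays, against 8.17, 7.94 and 7.82 on the Des-/- arrays, with groups that touched closely but did not overlap. Its change of 0.35 ± 0.12 SE did not pass (adjusted p = 0.0832 over all probe sets), though it did without Des-/- replicate 1 (0.45, adjusted p = 0.0170). Rcan1 is known to have alternative first exons, of which 1 form responds to calcineurin; the sources used here do not say which transcripts each probe set reads.

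Across 19 alternative settings, Nppb and Ankrd1 passed the test as higher in all 19 and Rcan1 in all 18 that gave it a value. Nppb ranged between 1.74 and 2.28, Ankrd1 between 0.67 and 1.33 and Rcan1 between 0.52 and 0.87. Nppa passed in 17 of 19 and ranged between 0.40 and 1.13. Settings with quantile normalization, in which its TNFαDes-/- readings were identical by construction, were among these 17.

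**Figure D3:**
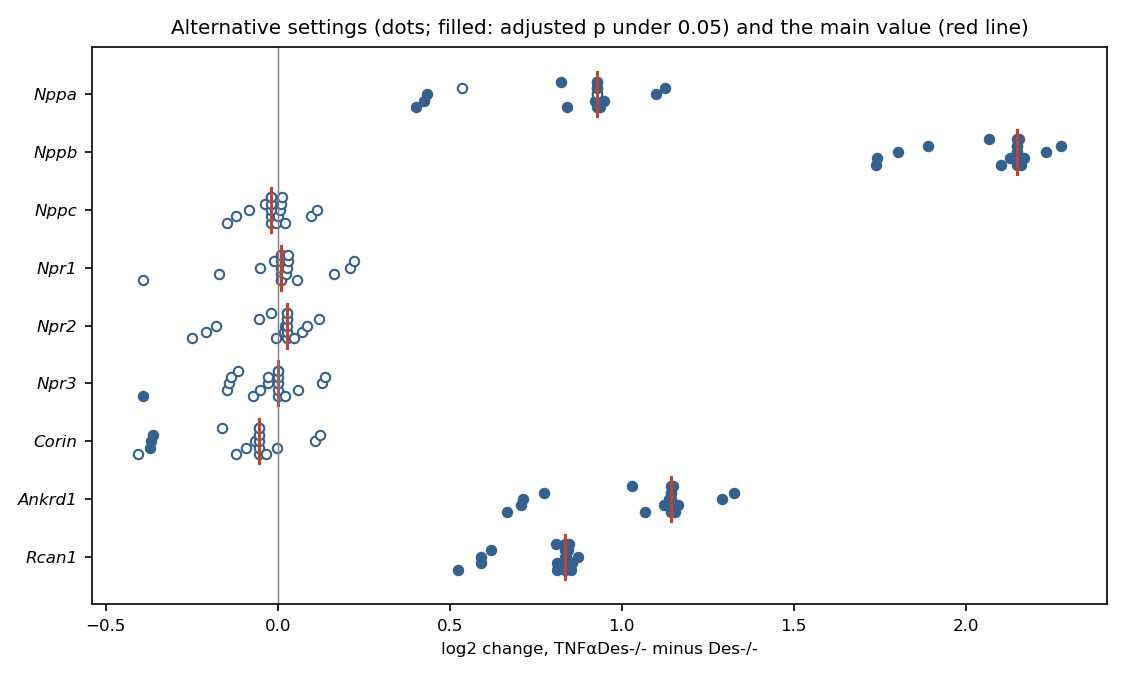
Log2 change of each gene, TNFαDes-/- minus Des-/-, under each alternative setting (dots, filled where the adjusted p was under 0.05, spread vertically only for legibility) and in the main fit (red line). Nppb, Ankrd1 and Rcan1 are filled throughout and Nppa except in 2 settings, while Nppc, Npr1, Npr2 and Npr3 scatter around 0; Npr3 is filled only where its probe sets were averaged (-0.39).

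Markers of the cell types in the heart were read on the same arrays. The shares of all genes to set beside this list and the later ones were 15.2% higher and 6.05% lower as deposited. After quantile normalization they were 12.0% and 10.4%. Of 8 general cardiomyocyte markers, 0 passed in either direction on their brightest probe sets. Their list mean lay between 13.88 and 13.92 on the TNFαDes-/- arrays and between 13.40 and 14.00 on the Des-/- arrays. After quantile normalization 2 fell, Tnni3 and Ryr2, and without Des-/- replicate 1 the deposited values gave 7 rises of 8, where 23.4% of all genes passed as higher and 8.56% as lower. The 2 probe sets of the cardiomyocyte marker Myh6 disagreed, with 0.40 on the brightest and -1.16 as their mean (adjusted p = 0.00832). Of 6 ventricular markers 1, Mpped2 (0.78 ± 0.10 SE), rose and 0 fell.

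Atrial markers moved both ways. Of 8, 1 rose, the secreted glycoprotein gene Dkk3 (1.08 ± 0.16, adjusted p = 0.00266), and 3 fell, among them the potassium channel genes Kcnj3 (-1.81 ± 0.13, adjusted p = 8.61e-05) and Kcnj5 (-0.74 ± 0.16, adjusted p = 0.0133). Kcnj3 read 6.49, 6.29 and 6.03 on the TNFαDes-/- arrays, against 8.04, 8.02 and 8.16 on the Des-/- arrays. The atrial myosin light chain genes Myl7 (-0.44 ± 0.16) and Myl4 (0.07 ± 0.19) and the calcium pump regulator Sln (-0.31 ± 0.13) did not pass. The list mean was 9.70 to 9.73 on the TNFαDes-/- arrays, against 9.90 to 10.30 on the Des-/- arrays. After quantile normalization 1 atrial marker rose and 6 fell, Myl7, Myl4 and Sln among them.

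Endothelial and endocardial cells express natriuretic peptide receptors, and some of their markers fell. Of 8, 0 rose and 4 fell, including the tight junction gene Cldn5 (-0.90 ± 0.11, adjusted p = 0.000838), the receptor gene Tie1 (-0.57 ± 0.12, adjusted p = 0.00955) and Tek (-0.49 ± 0.11, adjusted p = 0.0142). The list mean was 8.29 to 8.35 on the TNFαDes-/- arrays, against 8.62 to 8.88 on the Des-/- arrays, so it moved with the dimmer Npr3 probe sets, and its part in them was not tested. The other lists moved as follows, with rises first. Fibroblast markers gave 1 and 0 of 7, smooth muscle and pericyte markers 0 and 1 of 5, macrophage and leukocyte markers 4 and 1 of 8 and epicardial markers 0 and 3 of 5. Adipocyte markers gave 0 and 2 of 3, blood markers 0 and 1 of 3 and skeletal muscle markers 0 and 0 of 5.

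Cyclic GMP is also made by soluble guanylyl cyclase, the nitric oxide receptor, and genes of that enzyme were lower. Of 12 measured genes of cyclic GMP synthesis, action and breakdown, 2 rose and 5 fell (median -0.15, against 0.04 over all genes). Over all genes, 15.2% rose and 6.05% fell. After quantile normalization 0 of the 12 rose and 5 fell, where 12.0% of all genes rose and 10.4% fell. Gucy1a1, the α subunit gene, read 7.59, 7.22 and 7.75 on the TNFαDes-/- arrays, against 9.20, 8.48 and 8.48 on the Des-/- arrays. The groups did not overlap, and the fall (-1.20 ± 0.22 SE, adjusted p = 0.00564) passed with any 1 array left out. Gucy1b1, the β subunit gene, read 6.68, 6.79 and 6.84 on the TNFαDes-/- arrays, against 7.86, 7.51 and 7.65 on the Des-/- arrays. It fell by 0.90 (SE 0.12, adjusted p = 0.00123). Neither membrane cyclase gene, Npr1 or Npr2, passed on the same arrays. The difference in change between the soluble and the membrane cyclases was not tested. Smooth muscle cells carry soluble cyclase, and of 5 smooth muscle and pericyte markers 0 rose and 1 fell, Myh11 (-0.85 ± 0.18). On their brightest probe sets Pdgfrb (-0.60), Rgs5 (-0.02), Tagln (0.11) and Cnn1 (0.17) did not pass (3 of 5 markers fell after quantile normalization). As the mean of all their probe sets, Rgs5 (-0.95, adjusted p = 0.0120) and Pdgfrb (-0.67, adjusted p = 0.0123) passed as lower. The part of these cells in the falls of Gucy1a1 and Gucy1b1 was not tested.

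Among the phosphodiesterase genes, which encode enzymes that break cyclic nucleotides down, 3 fell. Pde3a stood at 5.25 ± 0.34 in TNFαDes-/- and 6.47 ± 0.81 in Des-/- hearts (SD, n = 3), a change of -1.23 ± 0.36 SE (adjusted p = 0.0412). That call was lost with any of 3 arrays left out (adjusted p up to 0.152). On TNFαDes-/- replicate 1 Pde3a (4.86) lay below its array's median. Pde1c fell by 0.76 (SE 0.17; the mean of its 6 probe sets gave -0.21, adjusted p = 0.0957). Pde9a, which acts on cyclic GMP, fell by 0.40 (SE 0.11) and lost its call with any of 5 arrays left out (adjusted p up to 0.130). Prkg1, the cyclic GMP-dependent kinase gene, rose by 0.39 (SE 0.12, adjusted p = 0.0443), and by 0.24 and not past the test after quantile normalization. Its call was lost with any of 4 arrays left out (adjusted p up to 0.167). The mean of its 2 probe sets gave 0.55 and did not pass (adjusted p = 0.0779). Pde5a (0.09 ± 0.15) and Pde2a (0.14 ± 0.09) did not pass. The group means of Pde5a (4.86 and 4.77) lie below the array medians, so it is not shown to be above background.

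Of 5 measured genes of peptide processing and clearance, 0 rose and 1 fell (2 after quantile normalization). The convertase gene Furin stood at 0.43 ± 0.14 SE and did not pass (adjusted p = 0.0587). Mme, which encodes neprilysin, the protease that degrades natriuretic peptides, stood at 4.32 in TNFαDes-/- and 4.74 in Des-/- hearts. Both means lie below the array medians, so this probe set does not show the gene to be above background. Its fall (-0.43 ± 0.10, adjusted p = 0.0153) was lost with any of 4 arrays left out (adjusted p up to 0.0659). The mean of the 2 probe sets of Mme gave -0.98 (adjusted p = 0.00116). Ostn, a ligand of Npr3, was not analysed here.

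Transcription factors that act on natriuretic peptide promoters moved both ways. Of 14 measured, 4 rose and 1 fell (median 0.29, and 0.10 with 3 rises and 1 fall after quantile normalization). Srf, which encodes serum response factor, read 9.04, 9.0 and 9.09 on the TNFαDes-/- arrays, against 8.18, 7.99 and 8.01 on the Des-/- arrays (0.98 ± 0.10 SE, adjusted p = 0.000389). The homeobox gene Nkx2-5 rose by 0.69 (SE 0.10, adjusted p = 0.00267) and the T-box gene Tbx20 by 0.74 (SE 0.14, adjusted p = 0.00693). These 3 passed with any 1 array left out and after quantile normalization, at 0.80, 0.42 and 0.51. Mef2c fell by 0.65 (SE 0.12, adjusted p = 0.00658; averaged over its 5 probe sets, -0.69, adjusted p = 0.0532). Gata4, whose motif stands in all 3 stretches shown, was at 0.31 ± 0.12 (adjusted p = 0.105). The mean of its 2 probe sets gave 0.04 (adjusted p = 0.884), and quantile normalization 0.11 (adjusted p = 0.411). Tead1, a reader of M-CAT, was at 0.21 ± 0.14 (adjusted p = 0.317), and at -0.05 after quantile normalization (adjusted p = 0.739). Without Des-/- replicate 1 both Gata4 and Tead1 passed on their brightest probe sets. The list then held 10 rises and 1 fall, where 23.4% of all genes passed as higher, against 15.2% with that array.

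Genes of the calcineurin pathway, in which Rcan1 acts, moved both ways. Of 12 measured, 1 rose and 2 fell, where 15.2% of all genes rose and 6.05% fell (median 0.04, the value over all genes; 1 rise and 4 falls after quantile normalization). The calcineurin subunit genes Ppp3ca (0.04 ± 0.12), Ppp3cb (0.29 ± 0.11) and Ppp3r1 (-0.27 ± 0.12) did not pass. Cib1, a calcium-binding partner of calcineurin, rose by 0.69 (SE 0.12; 0.33, adjusted p = 0.0663, as the mean of both probe sets). Nfatc2 and Nfatc4 fell by 0.57 and 0.44 on their brightest probe sets, but the means of their probe sets gave -0.12 and -0.02 and did not pass. The paralogs Rcan2 (-0.20 ± 0.18) and Rcan3 (0.30 ± 0.14) did not pass as deposited, and Rcan2 fell after quantile normalization (-0.58, adjusted p = 0.00201).

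Ankrd1 belongs to a family of muscle ankyrin repeat proteins that bind titin. Its relative Ankrd23 rose by 0.74 (SE 0.14, adjusted p = 0.0067; 0.38 after quantile normalization), while Ankrd2, near the array medians, did not pass (0.17 ± 0.16). Of the 8 measured relatives and partners, 2 rose and 0 fell, the second being the ubiquitin ligase gene Trim63 (0.74 ± 0.18, adjusted p = 0.0232, lost with any of 4 arrays left out, adjusted p up to 0.0926). After quantile normalization 2 rose and 2 fell. Ttn, the titin gene, was at 0.45 ± 0.22 and did not pass (adjusted p = 0.179).

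Ankrd1 is also a known target of YAP and TEAD. Of 8 other targets, 3 rose and 1 fell, where 15.2% of all genes rose and 6.05% fell. The counts of these targets were the same after quantile normalization. The matricellular gene Ccn2 read 13.08, 13.05 and 13.07 on the TNFαDes-/- arrays, against 11.69, 11.22 and 11.20 on the Des-/- arrays (1.70 ± 0.14 SE, adjusted p = 0.000151). Its relative Ccn1 rose by 1.54 (SE 0.13, adjusted p = 0.000186). Ajuba rose by 0.74 (SE 0.17, adjusted p = 0.0179, lost with any of 3 arrays left out), and Lats2 fell by 0.38 (SE 0.12, adjusted p = 0.0466, lost with any of 5 arrays left out; averaged over its 6 probe sets, -0.15, adjusted p = 0.378). Amotl2 (0.32 ± 0.14), Axl (0.25 ± 0.17), Nuak2 (0.20 ± 0.12) and Ptpn14 (0.18 ± 0.09) did not pass on their brightest probe sets. Averaged over its 3 probe sets, Ptpn14 passed as higher (0.83, adjusted p = 0.000308), so its call depends on the probe set used.

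**Figure D4:**
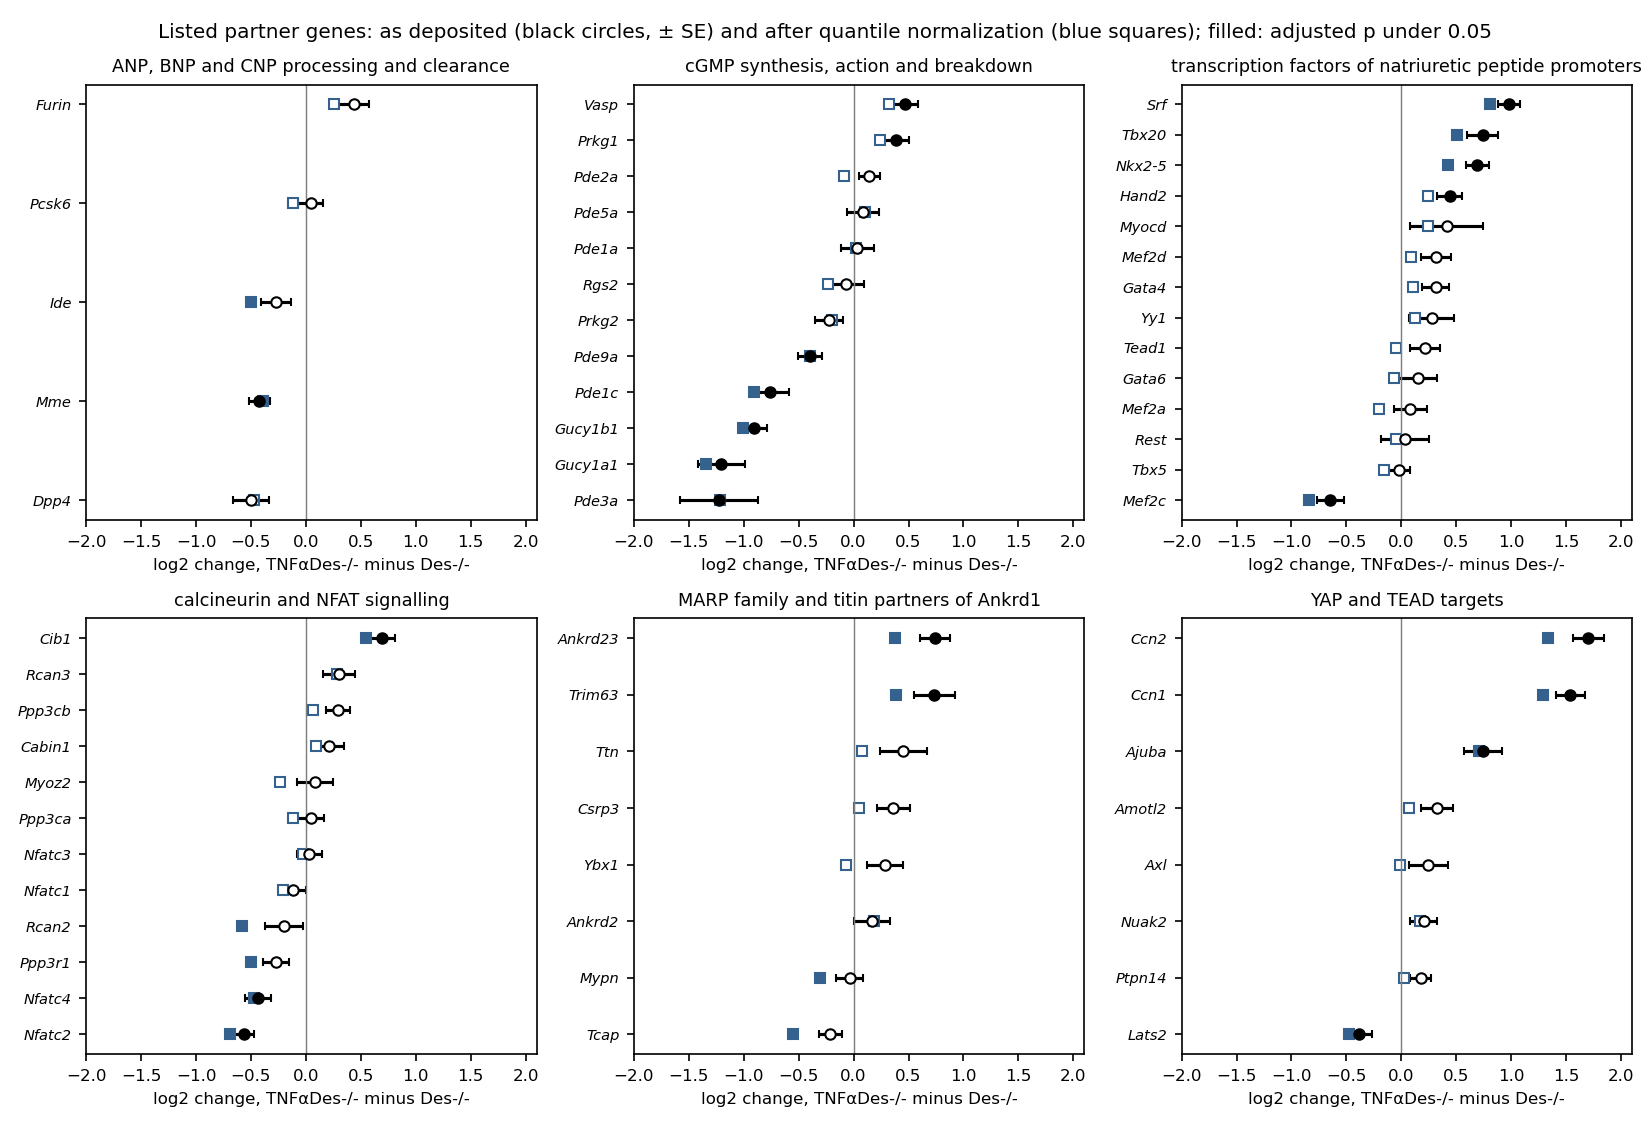
Log2 change, TNFαDes-/- minus Des-/-, of the measured genes of 6 partner lists, as deposited (black circles, ± SE, n = 3 per group) and after quantile normalization (blue squares), filled where the adjusted p was under 0.05. Gucy1a1 (-1.20) and Gucy1b1 (-0.90) lie left of 0, and Srf (0.98), Ccn2 (1.70) and Ccn1 (1.54) right of it, filled under both scalings.

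Other markers of heart failure did not move as one. Of 10 measured, 4 rose and 2 fell (median -0.01), where 15.2% of all genes rose and 6.05% fell. After quantile normalization 3 of them rose and 2 fell. Myh7, the slow myosin heavy chain gene, rose by 3.67 (SE 0.10), and Tnfrsf12a, the TWEAK receptor gene, by 1.41 (SE 0.11). Acta1, the skeletal actin gene, fell by 1.35 and Lgals3, the galectin-3 gene, by 0.72 (SE 0.15 each). Of 7 measured genes listed for the receptor of Gdf15 and for stress signalling, 4 rose and 0 fell, against the same shares of all genes. Atf5 (1.44 ± 0.10, adjusted p = 8.42e-05) and Egr1 (0.67 ± 0.11, adjusted p = 0.00351) rose most. After quantile normalization 3 of the 7 rose and 0 fell, where 12.0% of all genes rose and 10.4% fell.

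The genes whose values followed Nppb most closely over the 6 arrays were the glutathione transferase gene Gsta4, Tax1bp3 and the glyoxalase gene Hagh, each with a Pearson r above 0.99. As a description over 6 arrays this carries little weight, since 242 genes had an r above 0.99 and the difference between the groups and the high Des-/- replicate 1 set most of it. Their log2 changes were 1.84, 1.15 and 1.0.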

How the data were processed

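Heart RNA was measured on 6 one-colour oligonucleotide arrays. The deposited values are log2 summaries per probe set, made by the authors with RMA per the submitters' processing notes (version not stated). The sources used here do not say whether arrays were quantile normalized together. Values normalized in that way would have near-equal upper ends. The deposited ones did not, with 99th percentiles from 11.69 to 12.31 and maxima from 14.20 to 15.04. Of 45101 probe sets, 64 were controls, and of the other 45037, 34945 had 1 gene symbol in the platform annotation, 932 several and 9160 none. Each of 18193 genes was represented by its brightest probe set.

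Groups came from the sample titles. The comparison used lmFit and eBayes of limma 3.58.1 (R 4.3.3) without a filter on dim probe sets, with Benjamini-Hochberg adjustment over all genes, or over all 34945 probe sets for single probe sets, at 0.05. The fit was tested on simulated data. Nppb minus Nppa was compared by an exact permutation test. There were 19 alternative settings. Precision is limited by the number of arrays.

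The members and the 19 lists (8 of pathways, 11 of cell types) were chosen with earlier results of these data known. The text names every member, up to 4 changed genes and family members of a pathway list, up to 3 markers of a cell type, 3 neighbours on either side of Nppa and Nppb, and the 3 genes most like Nppb. Other genes given by value were chosen after their values were seen. Motifs were searched in the 250 bases before start sites. Figures were drawn with matplotlib 3.10.9.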

Additional observations from a re-analysis of the deposited data

How the results depend on the processing

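The 4 rises among the members (0 falls) held with each array left out in turn, while the count over all genes then ranged from 2068 to 5814 (1475 to 4257 higher, 557 to 1557 lower), against 3869 (2768 higher, 1101 lower), and why it moved was not tested. The number was lowest without TNFαDes-/- replicate 3 and highest without Des-/- replicate 1. With single arrays left out the log2 change ranged from -0.15 to 0.10 for Nppc, -0.17 to 0.21 for Npr1, -0.020 to 0.085 for Npr2, -0.072 to 0.13 for Npr3 and -0.16 to 0.12 for Corin, and none of these passed. Of 169 values of members under 19 settings, 28 had the opposite sign to the main value, and 1 of these passed, Npr3 as the mean of its probe sets (-0.39), a setting that gave 1 fall among the members. Array weights gave 8414 genes (5501 higher, 2913 lower) and Corin at 0.11. Median centring gave Nppc at 0.0018. Quantile normalization gave 1896 lower genes, 1 fall among the members (Corin), Nppc at 0.012, Npr2 at -0.18 and Npr3 at -0.14. Cyclic loess gave 1995 lower genes, 1 fall (Corin), Nppc at 0.0094, Npr2 at -0.21 and Npr3 at -0.14. Quantile normalization without Des-/- replicate 1 gave 2462 lower genes, 1 fall (Corin), Npr2 at -0.25 and Npr3 at -0.15. Without both Des-/- replicates 2 and 3, where the lone Des-/- array is assumed to vary like the others, 1587 genes passed (883 higher, 704 lower), with Nppc at 0.11, Npr1 at -0.39, Npr2 at -0.056 and Npr3 at -0.11. Testing each probe set on its own called 6041 of 34945 (1963 lower), more features being tested. With the replicate number as a block, 4278 genes passed (3042 higher, 1236 lower) and the members' calls did not change (Nppa adjusted p = 0.0012). The numbers were not seen to pair the arrays, though 3 arrays a group cannot settle it. Deviations of same-numbered arrays correlated at 0.25, 0.31 and -0.30, and those of differently numbered arrays between -0.43 and 0.38. Rcan1 has only probe sets named _a_at and gave no value without them, and Nppc none with the filter on dim probe sets. Signals near the array medians (Nppc, Npr1 and the dimmer Npr3 probe sets) and at the top of the arrays (Nppa) limit what could be measured.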
